A study of Mus musculus with 8 samples.

Results

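Genes of pachytene spermatocytes and spermatids were examined in testes of 8-day-old mice, an age at which the first wave of spermatogenesis has produced spermatogonia and early spermatocytes only. The 10 genes were Prm1, Prm2, Tnp1, Tnp2, Acrv1, Odf1, Akap4, Pgk2, Ldhc and Crem. They were found by their gene name among the non-control probes of the arrays, which gave 10 of 27962 gene names and 18 of 41174 probes. Crem had 6 probes, Prm1 had 3, Odf1 had 2 and every other gene had 1. A search by accession added 0 probes. Total RNA of whole testes was hybridized to 1-color arrays, with 4 biological replicates each from wild type and VRK1-deficient male mice and 1 replicate per array. VRK1 is a nuclear protein kinase of dividing cells. The VRK1-deficient mice carried a gene-trap insertion in an intron of Vrk1, came from 1 embryonic stem cell clone and had been backcrossed to C57BL/6, and they carried the insertion in all cells of the body, not in germ cells alone. They are hypomorphs that still make some full-length VRK1. Scaled to its array's 75th percentile, the log2 signal of Vrk1 ran from -0.20 to 0.59 on the wild type arrays and from -4.16 to -3.58 on the VRK1-deficient arrays, with a probe whose place relative to the insertion was not determined.

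Male germ cells enter meiosis in synchrony during the first wave, so that late stages are missing from a young testis. Pachytene spermatocytes switch on isozymes such as LDHC and PGK2. Round spermatids then transcribe the genes of the acrosome and the flagellum, and replace histones first with transition proteins and then with protamines. The transcription factor CREM drives many of the spermatid genes through cAMP response elements in their promoters.

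Between 63.1% and 69.0% of probes were well above background on each array, which is a flag of the scanner software that requires a signal far above the local background noise. Array brightness, given by the 75th percentile of the processed signal, ran from 548 to 848. Slide 1 held replicates 1 and 2 and slide 2 held replicates 3 and 4 of both genotypes. Wild type samples took positions 1 and 2 and VRK1-deficient samples took positions 3 and 4 on both slides, so position and genotype cannot be told apart. In bulk RNA, fewer cells of a type and less RNA per cell cannot be told apart either. Precision is limited throughout by the small number of arrays.

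The 10 genes were detected at day 8 at a share near that of all genes on the array. Tnp1, Tnp2, Prm1, Prm2, Ldhc and Crem had a probe well above background on 4 or more of the 8 arrays. These were 6 of 10 genes, whereas 64.7% of all gene names on the array passed the same rule. By probe, 12 of 18 (66.7%) passed, against 65.4% of all probes. All 6 probes of Crem were among the 12, and 5 of them lie within 998 bases, so the share by probe leans on 1 gene. The detected probes were divided sharply from the others: 11 were well above background on all 8 arrays, 1 on 7 arrays and the remaining 6 on 0 arrays. Pgk2, Acrv1, Odf1 and Akap4 had no detected probe in either genotype.

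**Figure D1:**
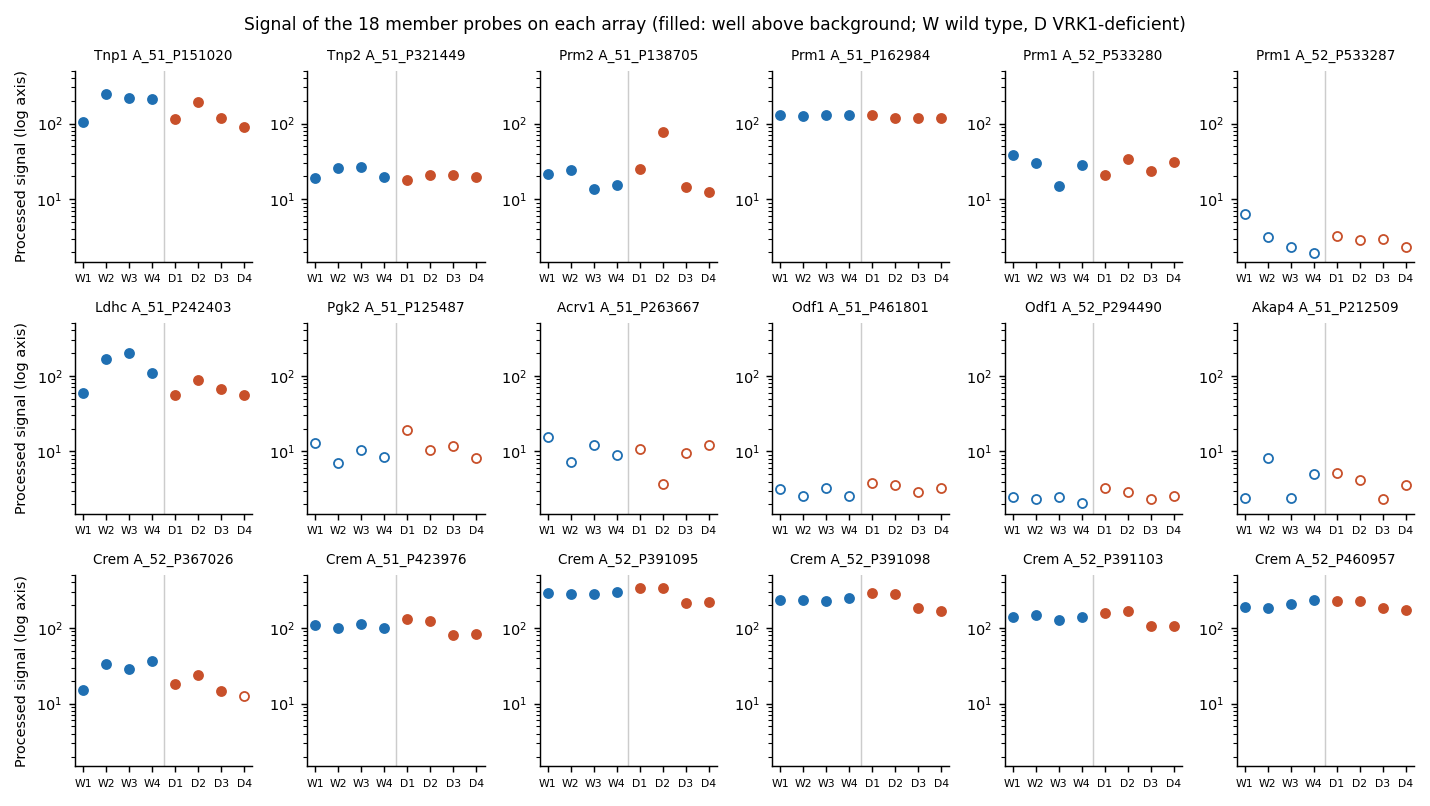
Processed signal (log axis, not scaled between arrays) of each of the 18 probes on the 8 arrays, with wild type replicates W1 to W4 in blue and VRK1-deficient replicates D1 to D4 in orange. Filled points were well above background and open points were not. Probes of Pgk2, Acrv1, Odf1, Akap4 and 1 probe of Prm1 have open points on all 8 arrays, and the signals of different probes should not be compared with each other.

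The undetected genes were those of the acrosome, the flagellum and the second isozyme. Acrv1 encodes an antigen of the acrosomal vesicle. Its signals were 15.6, 7.37, 12.1 and 8.90 on wild type arrays 1 to 4 and 10.7, 3.73, 9.47 and 12.3 on VRK1-deficient arrays 1 to 4. Pgk2, the testis phosphoglycerate kinase, had 12.9, 7.12, 10.6 and 8.38 on the wild type arrays and 19.5, 10.6, 11.7 and 8.21 on the VRK1-deficient arrays. The ranges of the genotypes overlapped for both genes. For scale, the dimmest probe flagged as well above background had a signal between 9.37 and 16.0, depending on the array. The flagellar genes were not well above background either. Akap4, the anchoring protein of the fibrous sheath, ran from 2.33 to 8.13. The 2 probes of Odf1, a protein of the outer dense fibers, lay between 2.08 and 3.80 on all arrays. The 99th percentile of the negative control spots was between 3.20 and 7.98, and neither probe of Odf1 exceeded it on any array. No fold change between genotypes is given for these genes because neither group was above background.

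A looser definition of detection admitted some of them. Under the software's flag for a positive and significant signal, 16 of 18 probes passed on at least 4 arrays (88.9%, against 80.3% of all probes). Both probes of Odf1 were the exceptions, with 1 and 0 arrays. Above the 99th percentile of the negative controls, 14 of 18 probes passed (77.8%, against 75.2%). Pgk2 exceeded that level on 8 arrays, Acrv1 on 7 and Akap4 on 3. Whether Pgk2, Acrv1 and Akap4 were detected therefore depended on the definition. Akap4 passed only by the positive and significant flag, on 5 arrays. Odf1 stayed undetected under every one of these rules.

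Transition protein genes were detected in both genotypes. Tnp1 and Tnp2 encode the small basic proteins that occupy chromatin between histones and protamines. Tnp1 (A_51_P151020, NM_009407, chromosome 1, 73257121 to 73257180 of build mm7) had signals of 104, 245, 217 and 211 on wild type arrays and of 116, 192, 118 and 89.3 on VRK1-deficient arrays. Wild type replicate 1 was the lowest of its group and lay among the VRK1-deficient arrays (after scaling, below all of them), while VRK1-deficient replicate 2 approached the other wild type arrays. Mean log2 signals were -1.97 ± 0.49 (SD, n = 4) for wild type against -2.37 ± 0.32 (SD, n = 4) for VRK1-deficient testes, a log2 difference of -0.40 (95% interval -0.97 to 0.17, limma adjusted p = 0.320). With a normexp background correction, the log2 difference of Tnp1 was -0.26. Tnp2 was dim but steady. Its signals were 19.1, 25.6, 26.8 and 19.8 on wild type arrays and 17.8, 21.1, 21.0 and 19.8 on VRK1-deficient arrays. The log2 difference was -0.0046, with an interval from -0.43 to 0.42 and a limma adjusted p of 0.99.

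Prm1, Prm2 and Tnp2 are neighbours, and on mm7 the probes of Prm1 and Tnp2 lie within 8049 bases of chromosome 16. The coding probes of Prm1 and Tnp2 are printed because the proteins' composition can be read in them. In frame, 12 of 19 codons of the Prm1 probe encode arginine, and these are in capitals. Cysteine accounts for 5 of 20 codons of the Tnp2 probe, also in capitals. Both are written 5′ to 3′ as the array files give them, on the strand of the transcript (minus strand of mm7, chr16:10474052-10474203 for Prm1 and chr16:10466155-10466214 for Tnp2).
Prm1 A_51_P162984: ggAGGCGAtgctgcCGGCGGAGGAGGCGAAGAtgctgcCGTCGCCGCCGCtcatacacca
Tnp2 A_51_P321449: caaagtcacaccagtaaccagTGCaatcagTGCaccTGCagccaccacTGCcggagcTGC

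The 3 probes of Prm1, which encodes the arginine-rich protamine 1, did not give the same answer. The arginine probe above had signals of 128, 124, 130 and 130 on wild type arrays and of 130, 120, 119 and 118 on VRK1-deficient arrays, all well above background. A_52_P533280, toward the 3′ end (chromosome 16, 10473905 to 10473964), had 38.6, 29.8, 15.1 and 28 on wild type arrays and 21.1, 33.9, 23.8 and 31.0 on VRK1-deficient arrays. A_52_P533287, between them (10473981 to 10474040), lay between 1.97 and 6.42 and was well above background on 0 arrays. Prm1 was therefore detected by 2 of its 3 probes. The groups overlapped at each of them.

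The arginine probe was also unusually even. Its listed span on mm7 is 152 bases for a probe of 60 bases, and its GC content of 70% is reached by 0.182% of all probes. The coefficient of variation of its unscaled signal over the 8 arrays was 4.19%, and 2 of 26941 tested probes had a smaller one. The median was 23.2% over all tested probes, 22.2% over the 70 tested probes with a GC content of at least 70% and 26.1% over the 1664 tested probes with a mean signal of 100 to 150. Array brightness varied more than the probe did. This probe was singled out after its values were seen.

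**Figure D2:**
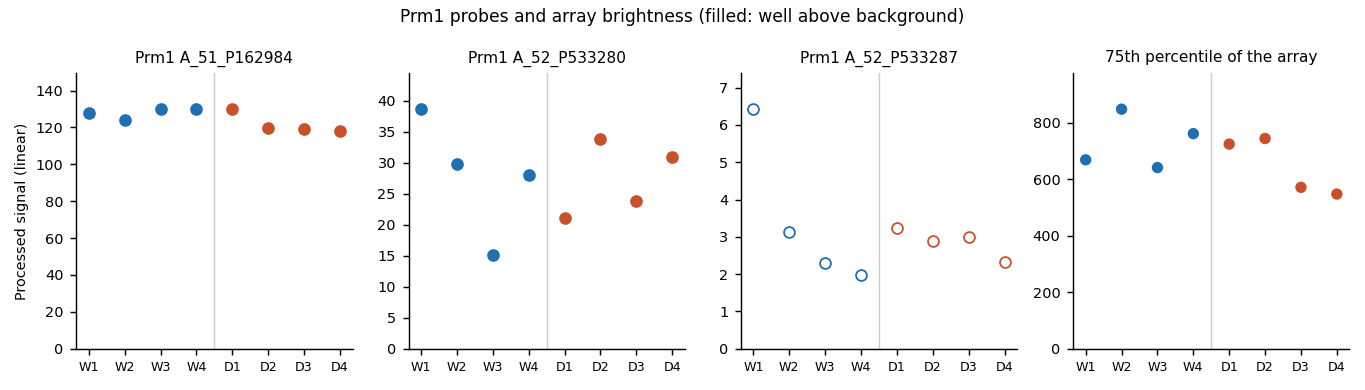
Processed signal (linear axes from 0, not scaled between arrays) of the 3 Prm1 probes and the 75th percentile of each array, by array (W wild type, D VRK1-deficient, filled points well above background). A_51_P162984 stays between 118 and 130 while the 75th percentile runs from 548 to 848, and A_52_P533287 is not well above background on any array.

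Prm2 encodes the second protamine, and its values were set by 1 array. The signals of A_51_P138705 (NM_008933, chromosome 16, 10469139 to 10469198) were 21.4, 24.5, 13.7 and 15.5 on wild type arrays and 24.9, 76.8, 14.6 and 12.3 on VRK1-deficient arrays. VRK1-deficient replicate 2 was the highest of all, and the other 7 arrays overlapped. The log2 difference was 0.59 (95% interval -0.40 to 1.57, limma adjusted p = 0.393), and it was 0.10 without that array (limma adjusted p = 0.791). Its coefficient of variation, 83.9%, was above that of 99.6% of tested probes. The log2 differences of the 2 detected Prm1 probes were 0.11 (interval -0.23 to 0.44, limma adjusted p = 0.658) for A_51_P162984 and 0.21 (interval -0.43 to 0.85, limma adjusted p = 0.648) for A_52_P533280.

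Ldhc is the lactate dehydrogenase subunit of spermatocytes and sperm. In the main fit it showed the largest mean difference between genotypes among the tested probes of the 10 genes. The signals of A_51_P242403 (NM_013580, chromosome 7, 43054105 to 43054164) were 59.4, 167, 201 and 107 on wild type arrays and 56.3, 88.4, 66.8 and 56.2 on VRK1-deficient arrays. Wild type replicates 2 to 4 were above all VRK1-deficient arrays, but wild type replicate 1 was not. Wild type testes had a log2 mean of -2.59 ± 0.77 (SD, n = 4), against -3.29 ± 0.28 (SD, n = 4) for the VRK1-deficient group. The difference of -0.70 (95% interval -1.48 to 0.07) left 61.5% of the wild type signal and did not pass the test (limma adjusted p = 0.210). Slide 1 alone gave a difference of -0.46 and slide 2 alone gave -0.94.

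Crem was measured by a cluster of probes toward its 3′ end and by 1 probe upstream, and 0 of them were called between genotypes. CREM exists as activator forms that build up in late germ cells and as repressor forms used in many tissues. Of its 6 probes, 5 lie within 998 bases near the 3′ end, from 3432979 to 3433976 on chromosome 18 of mm7. The sixth, A_52_P367026, was designed on a cDNA from adult testis (AK016156), lies 27347 bases upstream in the gene and has a listed span of 3805 bases. Only mean signals within a probe are compared here.

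The 5 probes at the 3′ end were well above background on all 8 arrays. Their signals ran from 81.3 to 337. A_52_P391095 had 285, 284, 282 and 294 on wild type arrays and 334, 337, 212 and 217 on VRK1-deficient arrays, so that the VRK1-deficient replicates of slide 1 were above and those of slide 2 below every wild type array before scaling. After scaling to array brightness, the log2 differences of the 5 probes were between 0.09 and 0.18, with limma adjusted p from 0.413 to 0.688. These probes lie close together in the gene and are not replicates of each other. The upstream probe had signals of 15.0, 33.0, 28.7 and 36.1 on wild type arrays and of 18.1, 23.6, 14.5 and 12.7 on VRK1-deficient arrays. It was below the detection flag on VRK1-deficient replicate 4. Wild type replicates 2 to 4 lay above all VRK1-deficient arrays and wild type replicate 1 lay among them (after scaling, below all of them). The log2 difference was -0.50 (95% interval -1.02 to 0.03, limma adjusted p = 0.192), and with a normexp background correction it was 0.056. Whether the upstream probe differed from the others in its change was not tested.

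Across genotypes, 0 of the 12 tested probes were called at a limma adjusted p under 0.05, whereas 3.65% of the 26941 tested probes were called (982 probes). At an unadjusted limma p under 0.05, 0 of 12 passed, against 28.8% of all tested probes, and the methods' t-test after adjustment called 0 of 12 as well. Of the 12, 4 (Tnp1, Tnp2, Ldhc and the upstream Crem probe) had a lower mean in VRK1-deficient testes, and 45.5% of all tested probes did. None had arrays that separated the genotypes in either direction. Of all tested probes, 7.28% showed such a separation with VRK1-deficient testes lower. The share with VRK1-deficient testes higher is not given here. Exact two-sided permutation tests over the 70 arrangements of the arrays gave p of 0.143 for Ldhc and for the upstream Crem probe and 0.229 for Tnp1, where 0.0286 is the smallest possible. The intervals remained wide, so these tests do not show that the levels were the same.

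**Figure D3:**
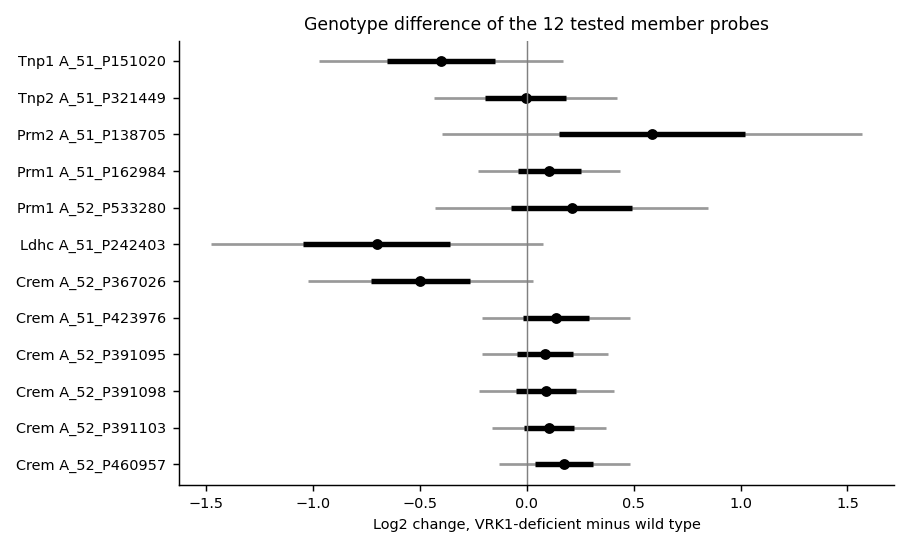
Log2 change between genotypes (VRK1-deficient minus wild type) of the 12 tested probes, with black bars for the standard error and grey bars for the 95% interval from limma. Every grey bar crosses 0, and Ldhc (-0.70), the upstream Crem probe A_52_P367026 (-0.50) and Tnp1 (-0.40) have the lowest values.

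Among the 12 probes, calls appeared only without wild type replicate 1. It was the lowest wild type array for Ldhc, the upstream Crem probe and Tnp1, so leaving it out widens these differences by construction. Dixon's ratio, the gap to the nearest array of the group over the group's range, did not mark it as an outlier. The ratios were 0.365, 0.736 and 0.746, in the same order, each below the critical value. Without this replicate, 3 of the 12 probes were called, all lower in VRK1-deficient testes. The log2 difference became -1.003 for Ldhc (limma adjusted p = 0.0266), -0.74 for the upstream Crem probe (limma adjusted p = 0.00806) and -0.64 for Tnp1 (limma adjusted p = 0.0332). In the same fit, 28.7% of all tested probes were called (7627 of 26589). Leaving out any other single array called 0 of the 12 probes and between 3 and 64 probes in all, against 982 in the main fit. The total therefore depended on every array, not on wild type replicate 1 alone. Over 8 lists of other germ cell genes, the mean of this replicate lay in the range of the VRK1-deficient arrays for 5 and above it for 3. The 3 lists were those of the acrosome (-2.95, against -3.29 to -3.07), the energy isozymes (-2.40, against -3.04 to -2.48) and the CREM family (-0.82, against -1.25 to -0.91). By contrast, its mean log2 signal over 11 detected genes of early meiotic prophase was -0.49, where the remaining wild type arrays had 0.56 to 0.93 and the VRK1-deficient arrays had -1.12 to -0.49. Over 6 germ cell markers it was 0.53, against 1.49 to 2.00 and -0.21 to 0.62. Over 7 Sertoli cell markers it was 3.23, against 2.57 to 2.83 and 2.94 to 3.27. The part of germ cell content in the values of Tnp1, Ldhc and Crem was not tested.

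**Figure D4:**
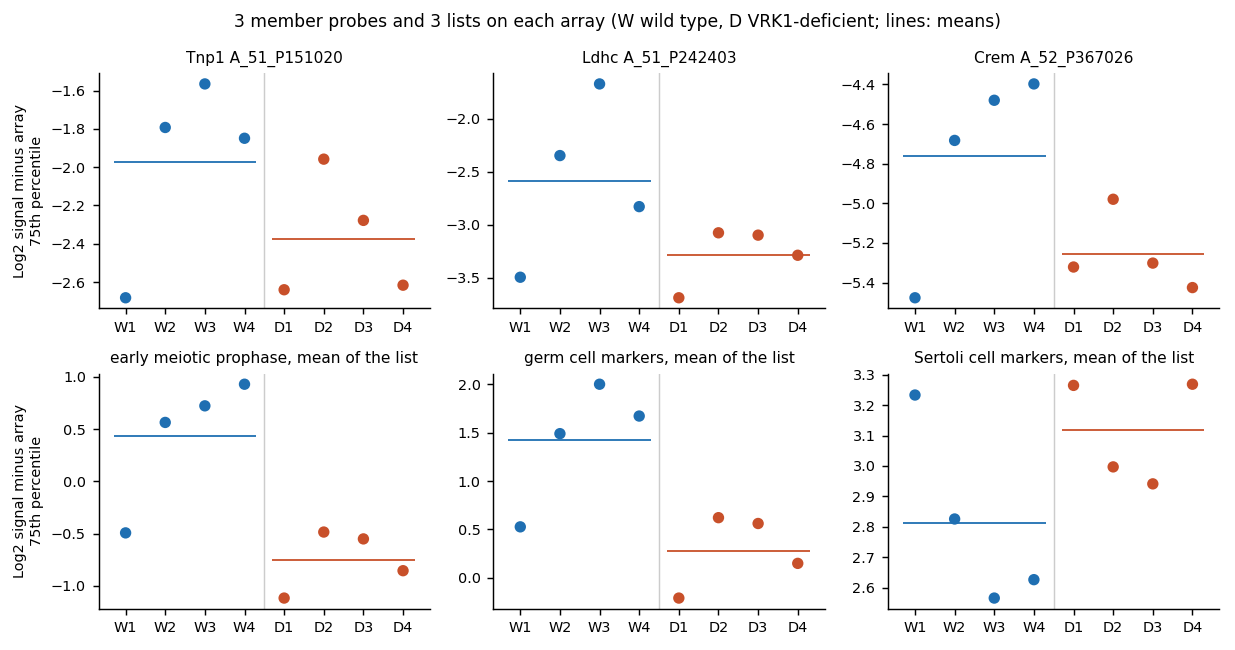
Log2 signal minus the log2 75th percentile of each array for Tnp1, Ldhc and the upstream Crem probe, and the mean of 3 gene lists, on wild type (W1 to W4) and VRK1-deficient (D1 to D4) arrays, with group means as lines. W1 lies within the range of the VRK1-deficient arrays or just below it in all 6 panels, at -0.49 for early meiotic prophase and 0.53 for germ cell markers.

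CREM acts through cAMP response elements, so promoters of the genes were searched for these. Those of Tnp1 and Ldhc are printed, chosen by their lower means in VRK1-deficient testes. Neither gene was called between genotypes in the main fit, and a part of CREM in their values was not tested. The RefSeq table (GRCm38.p6) held 10 promoters for 8 of the 10 genes, from 250 bases before the gene start to 50 bases after it, and all but Odf1 and Crem were matched. Searched on both strands, the full element TGACGTCA was in none of these 10 promoters and in 1.79% of 32851 mouse promoters. A form with 1 free base, TGANGTCA, includes the full element and was in 8.83% of all promoters. It occurred once each in Tnp1 (94 bases before the start), Prm1 (64 bases before) and Akap4 (35 bases before, in the first of its 2 promoters). The core TGACG was in 20.8% of all promoters. The second of the 2 Ldhc promoters had no match to any of these forms. Among the 10, the core was in the first Ldhc promoter alone, at 61 and at 47 bases before the start. The 250 bases before the start are given with these matches in capitals, from chr1:73015900-73016149 (minus strand) for Tnp1 and chr7:46861013-46861262 (plus strand) for Ldhc. Tnp2, with a log2 difference of -0.0046, matched none of these forms. Prm1 had a match and log2 differences of 0.11 and 0.21 at its detected probes. Whether matches go with genotype differences was not tested. A match describes the letters and not a bound site.
Tnp1 promoter: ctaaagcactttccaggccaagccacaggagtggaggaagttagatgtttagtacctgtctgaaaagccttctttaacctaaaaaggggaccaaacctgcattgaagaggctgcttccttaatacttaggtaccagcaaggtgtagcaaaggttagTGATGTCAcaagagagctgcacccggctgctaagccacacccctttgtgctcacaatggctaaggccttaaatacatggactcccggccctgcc
Ldhc promoter: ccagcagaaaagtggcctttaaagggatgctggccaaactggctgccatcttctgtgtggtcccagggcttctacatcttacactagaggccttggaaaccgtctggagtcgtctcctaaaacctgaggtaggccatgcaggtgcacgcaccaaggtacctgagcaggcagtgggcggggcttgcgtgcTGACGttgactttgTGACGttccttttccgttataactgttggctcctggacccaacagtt

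Other genes, called late genes here, were compared with the 10 genes through 4 lists. These were spermatid chromatin, acrosome and egg binding, flagellar sheath and sperm mitochondria, and germ cell energy isozymes. Whether each list gene is limited to late stages was not checked. In wild type testes, H2ac1 had a mean log2 signal of 7.23 and Odf2 of 3.35. A detected list gene is therefore not shown to be a spermatid gene ahead of its stage. Of 42 genes, 39 were measured, each by its brightest probe, 23 were detected (59.0%) and 10 were well above background on 0 arrays. Detection was 5 of 8 for spermatid chromatin, 8 of 14 for the acrosome, 6 of 10 for the flagellum and 4 of 7 for the isozymes. Undetected genes included Prm3, Hils1, Spam1, Crisp2, Adam2, Smcp and Gk2, all on 0 arrays. Lists of earlier stages had larger shares of detected genes, a difference that was not tested. For pachytene spermatocytes 10 of 11 genes were detected, for early meiotic prophase 11 of 13 and for germ cell markers 6 of 6. Of 7 epididymis markers 1, Cst11, was detected, on all 8 arrays. These markers cannot check the dissection, because their level in an epididymis of this age was not measured.

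**Figure D5:**
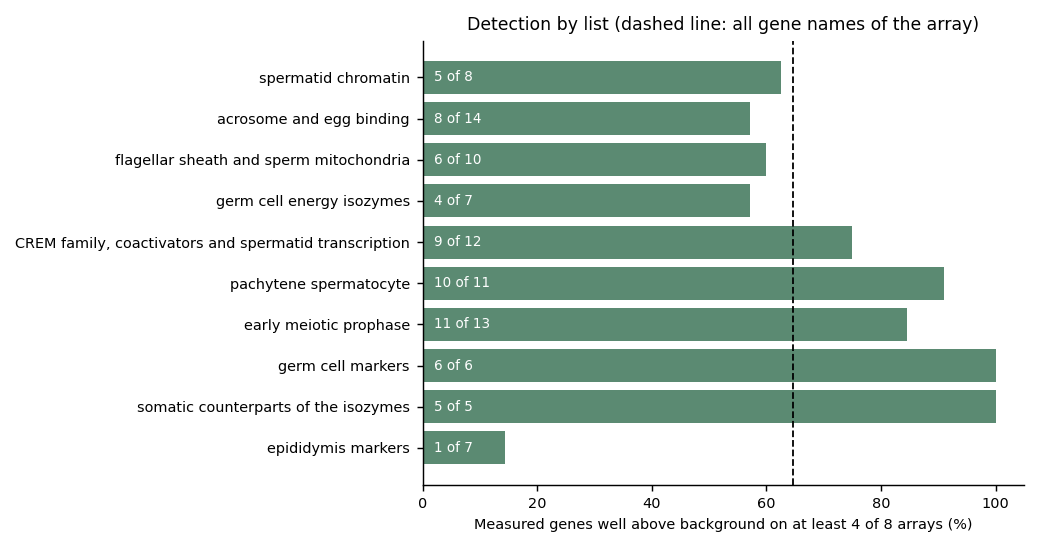
Share of the measured genes of each list with the well-above-background flag on 4 or more arrays, with the counts inside the bars and a dashed line at 64.7%, the share among all gene names of the array. The 4 lists of late genes lie between 57.1% and 62.5%, and the lists of pachytene spermatocytes, early meiotic prophase and germ cells lie above the line.

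Among the 23 detected late genes, 1 was called lower in VRK1-deficient testes and 0 were called higher, a share near the 3.65% of all tested probes. A lower mean was found for 16, against 45.5% of all tested probes. Their median log2 difference was -0.43, against 0.04 over all tested probes, but with a normexp background correction it was 0.03, 11 of 23 were lower and 0 were called. The called gene was Spesp1, a protein of the sperm equatorial segment. It was well above background on 4 wild type arrays and 0 VRK1-deficient arrays, and its signal was at least 1.36-fold lower in VRK1-deficient testes (limma adjusted p = 0.0474, and from 0.0292 to 0.577 over 14 alternatives). As it passed the filter through the wild type arrays alone, where it was high, this call is a description and supports nothing about the list. The bound sets the mean wild type log2 signal against, on each VRK1-deficient array, the higher of the probe's own signal and the dimmest signal flagged as well above background. Chd5, a chromatin remodeler of spermatids, had a log2 difference of -1.29 (limma adjusted p = 0.0526), and Brdt, the testis bromodomain protein that reads acetylated histones, had -0.81 (limma adjusted p = 0.0782). In the flagellar list, Odf2 of the outer dense fibers had -0.73 (limma adjusted p = 0.0757) and Ropn1l of the fibrous sheath had -0.73 (limma adjusted p = 0.111). Without wild type replicate 1, 9 of 22 detected late genes were called lower and 2 higher, where 28.7% of all tested probes were called in either direction.

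Of the 4 detected isozyme genes 3 had a lower mean, and of their 5 somatic counterparts 4 had a higher mean, with 0 called in either list. Pdha2, the testis subunit of pyruvate dehydrogenase, had a log2 difference of -0.82 (limma adjusted p = 0.155), and Cyct, the testis cytochrome c, had -0.53 (limma adjusted p = 0.106). The median was -0.51 over the isozymes and 0.33 over the somatic counterparts. Ldha, the muscle-type lactate dehydrogenase subunit, had a log2 difference of 0.51 (limma adjusted p = 0.0506), and Pgk1, the somatic phosphoglycerate kinase, had 0.42 (limma adjusted p = 0.0693). Neither passed the threshold. Leydig and Sertoli cell markers, which mark somatic cells, had medians of 0.35 and 0.28 with 0 called among 7 each, and their part in these values was not tested.

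Partners and relatives of CREM were detected in 9 of 12 cases, and 8 of the 9 had a lower mean in VRK1-deficient testes, with a median of -0.53 (-0.24 with normexp). Kif17 and Gtf2a1l were called lower, where 3.65% of all tested probes were called in either direction. Neither was called with normexp or on slide 1 alone. Kif17 encodes a kinesin motor that carries the CREM coactivator out of the spermatid nucleus, and its log2 difference was -0.998 (limma adjusted p = 0.0489, and from 0.00451 to 0.759 over 19 alternatives). Gtf2a1l, a germ cell form of a subunit of general transcription factor IIA, was well above background on 4 wild type arrays and 0 VRK1-deficient arrays, a signal at least 1.61-fold lower (limma adjusted p = 0.0409, and from 0.0218 to 0.95 over 14 alternatives). It too passed the filter through the wild type arrays alone, so its call supports nothing about the list. Without wild type replicate 1, 4 of 8 genes were called, 3 of them lower, where 28.7% of all tested probes were called. The coactivator itself, Fhl5, was well above background on 0 arrays.

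Lists of earlier stages had medians further below 0 than the late genes, a difference that was not tested. Over all tested probes, 3.65% were called in the main fit and 28.7% without wild type replicate 1. With a normexp background correction, 1387 of 26941 were called. In the pachytene list, 6 of 10 detected genes had a lower mean, 0 were called and the median was -0.55. With normexp the median was -0.11, with 5 lower and 2 called, and without wild type replicate 1 the 6 lower genes were called. Ccna1, a cyclin of late meiotic prophase, had a log2 difference of -1.05 (limma adjusted p = 0.0866), and Clgn, a chaperone of the endoplasmic reticulum, had -1.03 (limma adjusted p = 0.0866). In early meiotic prophase, all 11 detected genes had a lower mean, with a median of -1.24, and 3 were called (10 without wild type replicate 1). They were Mei1, needed for meiotic recombination (-1.88, limma adjusted p = 0.0493), Sycp2 of the synaptonemal complex (-1.67, limma adjusted p = 0.0439) and Stag3 of the meiotic cohesin (-1.03, limma adjusted p = 0.0454). Germ cell markers were lower for 6 of 6 genes, with 0 called and a median of -0.91, and all 6 were called without wild type replicate 1. With normexp, 10 of the 11 early meiotic genes were lower and 7 were called, with a median of -0.93. The germ cell markers then had 6 lower and 2 called, with a median of -0.85. Peritubular, macrophage and red blood cell markers had medians of -0.07, 0.09 and -0.23, and among their 12 detected genes 1, the smooth muscle gene Cnn1, was called lower.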

How the data were processed

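The authors labeled total testis RNA of postnatal day 8 with Cy3 and used Agilent Whole Genome Mouse arrays, 4 per genotype. The authors deposited linear intensities, the processed signals of Agilent Feature Extraction 9.5.3.1, with background subtracted and not scaled between arrays. The deposited value table held the same intensities. Any later scaling by the authors is not stated in the sources at hand. Probe positions are those of the files, on mm7.

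Here log2 intensities were computed, the log2 of each array's 75th percentile was subtracted, outlier spots were left out and spots of 1 probe were averaged. The test with limma 3.58.1 in R 4.3.3 took 26941 probes, with Benjamini-Hochberg adjustment over all of them. These were flagged by the software as well above background on 4 or more of the 8 arrays and had a value on all 8. In simulated data on 26941 probes, 84% of 200 changed probes were recovered, with 15 false calls. The simulation was a check of the procedure. How often differences of the size seen for the examined genes would be recovered on the real arrays was not tested. Alternatives were quantile normalization, no scaling, normexp (offset 50), other filters, slide as a block or alone, a replicate block, each array left out, trended robust variances and the methods' t-test.

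All 10 genes were named with every probe. From each stage list, genes at an adjusted p under 0.05 were named, and otherwise the 2 with the largest log2 difference among genes well above background on all arrays. Cell type markers are given by counts and list means. Undetected list genes, Fhl5 and Cnn1 were added after their values were seen. The members and lists were chosen with earlier results of these data known, and the 15 lists include markers of germ, Sertoli, Leydig, peritubular, macrophage, red blood and epididymis cells.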

Additional observations from a re-analysis of the deposited data

How the results depend on the processing

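The count of detected probes among the 10 genes stayed within 1.5 times of 12 under every rule tried. The 982 probes called in all became 17 without a filter on dim probes, 626 with slide as a block, 3 on slide 1 alone, 2280 with a replicate block, 1920 with trended robust variances and 217 with the methods' t-test after adjustment. Leaving out 1 array gave 3 to 7627. Some of these fits had fewer arrays or more probes, and the cause of the differences was not tested. The count of called probes among the 10 genes was 0 under each of these, the other scalings and slide 2 alone, and 0 to 3 when 1 array was left out. The deviations of same-numbered arrays correlated at 0.47, 0.07, 0.19 and -0.14. However, 3 of the 4 wild type arrays correlated best with the VRK1-deficient array of their own number. The numbers were not taken as pairs in the main fit, and whether they mark pairs was not settled. With a replicate block, the limma adjusted p of Ldhc was 0.083. Without scaling, the median of all tested probes moved from 0.04 to -0.14, and the log2 difference of Prm1 A_51_P162984 became -0.073 and those of the Crem probes at the 3′ end -0.041 (A_51_P423976), -0.093 (A_52_P391095), -0.087 (A_52_P391098), -0.076 (A_52_P391103) and -0.0033 (A_52_P460957). Tnp2 became 0.020 with quantile normalization, 0.27 with normexp and 0.15 on slide 2, and ran from -0.091 to 0.14 when 1 array was left out. The upstream Crem probe became 0.056 with normexp. Prm1 A_52_P533280 was -0.31 on slide 1, and from -0.0011 to 0.43 with 1 array left out. On slide 2 alone, Crem was -0.051 (A_51_P423976), -0.10 (A_52_P391095), -0.14 (A_52_P391098) and -0.029 (A_52_P391103). None of these changed sides of the threshold. Dim probes such as Tnp2 lie near background, which limits their precision.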
